A study of Mus musculus with 6 samples.

Results

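The genes described here carry thyroid hormone into cells, activate it, bind it and pass its signal to chromatin: the receptors THRA and THRB, their partner RXRG, the corepressors NCOR1 and HR, the transporter SLC16A10, the activating deiodinase DIO2, the cytosolic binding protein CRYM and the hormone-induced factor KLF9. They were selected by symbol, and 9 of the 16736 rows of the deposited count table bore one of these names. All 9 passed the filter on low counts, as did 13873 rows in all. The libraries are polyadenylated RNA from whole pituitaries of male mice, 3 labelled HFD and 3 labelled RD. All mice were fasted for 16 h and then fed for 4 h. The labels leave both diet abbreviations unexplained and give no age or strain. They do not say whether the libraries of a group came from different animals. A p-value here therefore sets the difference between groups against a modelled spread between libraries, which may be partly or wholly technical.

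Thyroid hormone reaches the pituitary mainly as thyroxine, the prohormone, which DIO2 converts to the active triiodothyronine. Triiodothyronine binds the nuclear receptors encoded by Thra and Thrb, which sit on DNA mostly as heterodimers with retinoid X receptors. Without hormone they hold corepressors such as NCOR1, and with hormone they exchange these for coactivators. In thyrotrophs the hormone represses the thyrotropin genes through THRB, which is the arm of negative feedback that the pituitary supplies, and in rodent somatotrophs it raises growth hormone transcription.

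THRB differed most among these genes, and its reference sequence is shown because its levels carry the main result while gene counts cannot say which of its starts was used. Mouse Thrb lies on the plus strand of chromosome 14 (17660261 to 18038090, GENCODE M21 on mm10) and has 3 annotated coding transcripts. Thrb-201 and Thrb-203 start at 17660896, and Thrb-202 starts at 17981529. RefSeq windows of 300 bases on GRCm38.p6, from 250 bases before to 50 after an annotated start, were available for 6 of the 9 genes, 9 windows in all. The 2 Thrb windows begin 320684 bases apart, at chr14:17660710-17661009 and chr14:17981394-17981693, and are printed on the plus strand. The Dio2 window, chr12:90738989-90739288, is printed on the minus strand, as it precedes the enzyme that makes the receptors' ligand. Capitals mark AGGTCA, the half-site of receptor binding, in the first window, and TGACGTCA, the cyclic AMP response element, in the third, and the second holds neither.
Thrb upstream start: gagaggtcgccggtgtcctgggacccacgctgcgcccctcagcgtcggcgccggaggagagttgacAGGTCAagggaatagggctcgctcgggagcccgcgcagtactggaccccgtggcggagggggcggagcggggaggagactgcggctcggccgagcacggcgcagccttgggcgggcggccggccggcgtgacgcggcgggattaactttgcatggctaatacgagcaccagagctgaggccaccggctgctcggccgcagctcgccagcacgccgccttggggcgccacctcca
Thrb downstream start: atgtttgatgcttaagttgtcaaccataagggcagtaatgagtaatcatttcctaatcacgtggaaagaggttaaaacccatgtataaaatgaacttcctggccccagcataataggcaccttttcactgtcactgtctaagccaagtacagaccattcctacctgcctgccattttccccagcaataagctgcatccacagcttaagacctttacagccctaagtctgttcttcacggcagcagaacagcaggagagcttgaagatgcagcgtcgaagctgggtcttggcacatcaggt
Dio2: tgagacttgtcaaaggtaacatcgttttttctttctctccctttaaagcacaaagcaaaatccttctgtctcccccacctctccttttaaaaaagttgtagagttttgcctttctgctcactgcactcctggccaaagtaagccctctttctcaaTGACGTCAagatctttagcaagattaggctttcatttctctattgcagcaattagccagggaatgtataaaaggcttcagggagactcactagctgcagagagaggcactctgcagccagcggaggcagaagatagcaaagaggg

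The 3 windows differ in composition, with 72.7% G or C at the upstream Thrb start, 46.0% at the downstream start and 44.7% at Dio2. Counting as 0 the start on which each window is placed, AGGTCA begins at -184 in the upstream Thrb window, and TGACGTCA begins at -95 in the Dio2 window. These starts differ from the GENCODE starts of Thrb given above. The Dio2 window lies wholly outside the GENCODE span of Dio2 (90724552 to 90738438). Read on both strands, AGGTCA occurred in 2 of the 9 windows, the other being a window of Rxrg, and in 16.3% of all 32851 mouse windows. TGACGTCA occurred in 1 of the 9 and in 1.79% of all. A direct repeat of the half-site with 4 bases of any kind between the copies occurred in 0 of the 9 and in 0.0152% of all. These matches describe letters and were not tied to any change in the counts.

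THRB transcripts were lower and THRA transcripts higher in HFD than in RD pituitaries. These 2 of the 9 genes were called, meaning that they passed an adjusted p of 0.05 in edgeR's quasi-likelihood test with Benjamini-Hochberg adjustment over all tested genes. Of all tested genes 10.5% were called, 5.87% higher and 4.61% lower. The other 7 genes did not pass. Of the 9, 5 had no overlap between the HFD and RD libraries, as had 32.5% of all tested genes. The median log2(HFD/RD) was 0.03 over the 9 genes and 0.00 over the table (-0.0023). THRA and THRB ranked 577 and 454 by p-value among the 13873 genes. Nothing particular to these 9 genes is read from either count.

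**Figure D1:**
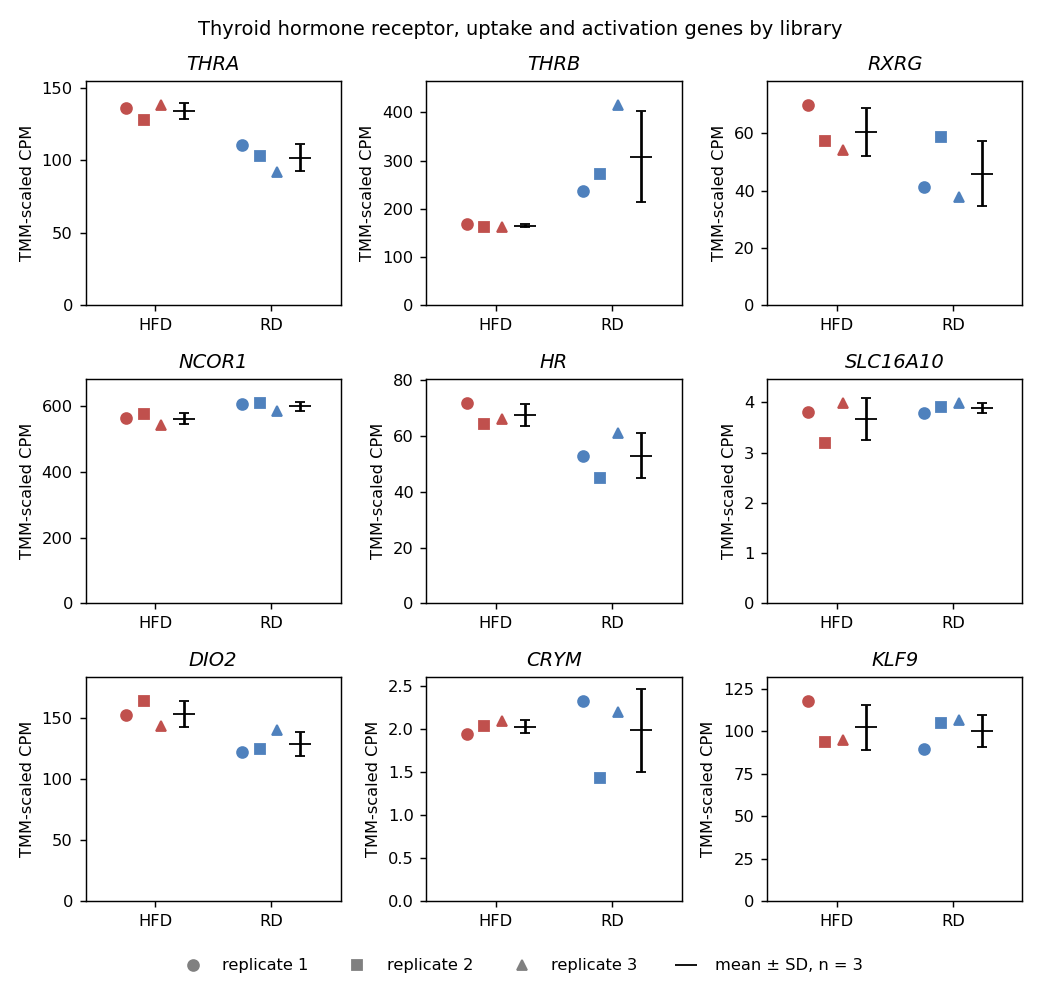
Level of each of the 9 genes in every library, as TMM-scaled CPM on linear axes from 0, HFD in red and RD in blue, with the mean ± SD (n = 3) as black bars. For THRA all HFD libraries (128 to 138 CPM) lie above all RD libraries, and for THRB all HFD libraries lie below, with RD replicate 3 far above the others at 415 CPM.

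THRB encodes the receptor subtype known for feedback on thyrotropin. It stood at 169, 163 and 164 CPM in HFD replicates 1, 2 and 3, and at 237, 272 and 415 CPM in RD replicates 1, 2 and 3 (CPM are counts scaled by the library total and its TMM factor). The groups did not overlap. The HFD libraries lay within a few CPM of each other, while RD replicate 3 was far above the other RD libraries. The means were 165 ± 3.45 CPM in HFD and 308 ± 94.3 CPM in RD (SD, n = 3 each). On the log2 scale HFD differed from RD by -0.90 ± 0.17 (SE), which is 0.537 of the RD level (adjusted p = 0.011, edgeR). Without RD replicate 3 the log2 change was -0.63 and the adjusted p was 0.000455. Leaving out HFD replicate 2 or HFD replicate 3 ended the call (adjusted p = 0.0568 and 0.0632), with log2 changes of -0.89 in both fits. In a whole gland, fewer cells that express a gene and less of its RNA per cell cannot be told apart.

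THRA encodes a receptor subtype expressed widely across tissues, and its second product, the alpha-2 form, does not bind the hormone. It stood at 136, 128 and 138 CPM in HFD replicates 1, 2 and 3, and at 111, 103 and 91.9 CPM in RD replicates 1, 2 and 3. Every HFD library was above every RD library. The means were 134 ± 5.50 CPM in HFD and 102 ± 9.41 CPM in RD (SD, n = 3 each), a log2 change of 0.40 ± 0.08, or 1.31-fold (adjusted p = 0.0155, edgeR). The call was lost when any 1 of the HFD libraries was left out (adjusted p = 0.0575, 0.0503 and 0.0801 without HFD replicates 1, 2 and 3). The log2 change stayed between 0.37 and 0.43 in those fits. With an RD library left out THRA was still called, and the log2 change was 0.45, 0.40 and 0.32 without RD replicates 1, 2 and 3.

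Mouse Thra (chromosome 11, plus strand, 98740638 to 98769006) has 2 annotated coding transcripts, and the longer, Thra-201, ends inside Nr1d1, which lies on the opposite strand. The genes share 263 exonic bases between 98767932 and 98769006, which is 8.3% of the exonic length of Thra. Nr1d1 encodes the clock repressor REV-ERB alpha. Whether the counting used strand is not given in the sources used here, so reads from the shared bases may belong to either gene. NR1D1 stood at 153 ± 17.2 CPM in HFD and 143 ± 10.5 CPM in RD (SD, n = 3 each), which differ by 0.09 ± 0.09 on the log2 scale (adjusted p = 0.574, edgeR, not called). Its part in the THRA count was not tested.

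Within a library the ratio of THRA to THRB counts does not depend on scaling. It was 0.803, 0.782 and 0.845 in HFD replicates 1, 2 and 3, and 0.467, 0.380 and 0.221 in RD replicates 1, 2 and 3. All HFD ratios were above all RD ratios, and the RD ratios were the more spread. The mean log2 ratio was -0.30 ± 0.06 in HFD and -1.56 ± 0.56 in RD (SD, n = 3 each), a difference of 1.25. Leaving out each library in turn gave differences between 0.945 and 1.48, the smallest without RD replicate 3. The ratio is a description of 2 genes already compared above.

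**Figure D2:**
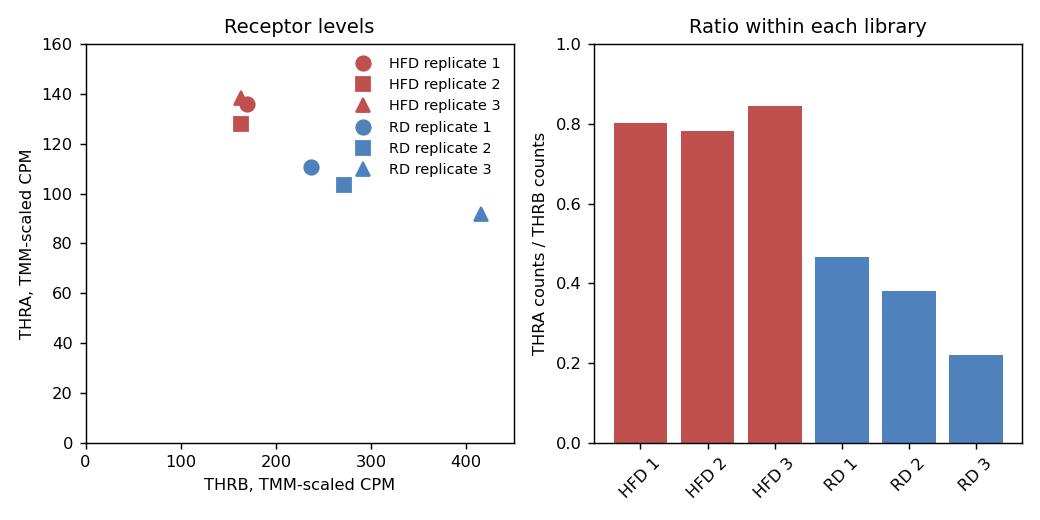
Left, THRA against THRB in TMM-scaled CPM, 1 point per library, HFD in red and RD in blue; right, the ratio of THRA to THRB counts in each library, as bars from 0. The HFD libraries form a tight cluster at high THRA and low THRB with ratios of 0.782 to 0.845, and the RD ratios run from 0.221 to 0.467.

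RXRG encodes the retinoid X receptor gamma, a heterodimer partner known to be enriched in thyrotrophs. It stood at 69.7, 57.2 and 54.2 CPM in HFD replicates 1, 2 and 3, and at 41.3, 58.7 and 37.7 CPM in RD replicates 1, 2 and 3. RD replicate 2 lay within the HFD range, so the groups overlapped. The log2 change was 0.40 ± 0.16, the same size as that of THRA with a larger error, and was not called (adjusted p = 0.152, edgeR). Without RD replicate 2 it was 0.61 and was called (adjusted p = 0.0256, edgeR), the 1 call among 16 alternatives. It fell to 0.27 without RD replicate 3 (adjusted p = 0.302, edgeR) and to 0.28 without HFD replicate 1 (adjusted p = 0.373, edgeR). The other retinoid X receptor genes, RXRA (log2 change 0.19 ± 0.10) and RXRB (0.11 ± 0.09), were not called by edgeR, DESeq2 or limma-voom.

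NCOR1 encodes the corepressor that bridges unliganded receptors to histone deacetylase HDAC3. It stood at 563, 577 and 543 CPM in HFD replicates 1, 2 and 3, and at 605, 609 and 584 CPM in RD replicates 1, 2 and 3. The groups did not overlap, yet they lay close together, with a log2 change of -0.10 ± 0.05 that was not called (adjusted p = 0.304, edgeR). HR, the corepressor hairless, is itself induced by thyroid hormone in rodent brain. It stood at 71.7, 64.3 and 65.9 CPM in HFD replicates 1, 2 and 3, and at 52.7, 44.99 and 61.0 CPM in RD replicates 1, 2 and 3. All HFD values of HR were above all RD values. The log2 change of 0.35 ± 0.11 missed the threshold (adjusted p = 0.078, edgeR). HR was called in 4 of 16 alternatives. These were the fit without RD replicate 3 (0.46, adjusted p = 0.0104), DESeq2 (adjusted p = 0.0447), upper-quartile scaling (adjusted p = 0.0498) and library-size scaling (adjusted p = 0.0342). In the other 12 it was not called, and its log2 change fell to 0.24 without RD replicate 2 (adjusted p = 0.199, edgeR) and to 0.30 without HFD replicate 1 (adjusted p = 0.205, edgeR).

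DIO2 encodes the deiodinase that activates thyroxine. It stood at 152, 164 and 143 CPM in HFD replicates 1, 2 and 3, and at 122, 125 and 140 CPM in RD replicates 1, 2 and 3. The HFD libraries were all above the RD libraries, though HFD replicate 3 and RD replicate 3 nearly met. The log2 change was 0.25 ± 0.08, or 1.19-fold (adjusted p = 0.0759, edgeR). It passed the threshold in 3 of 16 alternatives. These were the fit without RD replicate 3 (0.31, adjusted p = 0.0197), library size as the only scaling (adjusted p = 0.0229) and upper-quartile scaling (adjusted p = 0.0409). In the other 13 DIO2 was not called, with the largest adjusted p without HFD replicate 2 (0.20, adjusted p = 0.26, edgeR). Dio2 shares 100 exonic bases, 1.7% of its exonic length, with the noncoding gene Gm26512 on the opposite strand.

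SLC16A10 encodes MCT10, a transporter of aromatic amino acids and thyroid hormone. It was scarce, with 55, 47 and 59 counts in HFD replicates 1, 2 and 3, and 62, 60 and 69 counts in RD replicates 1, 2 and 3. In CPM the groups overlapped (3.67 ± 0.42 in HFD and 3.90 ± 0.10 in RD, SD, n = 3 each), and the log2 change was -0.09 ± 0.21. CRYM encodes mu-crystallin, which binds triiodothyronine in the cytosol. It was scarce too, with 28, 30 and 31 counts in HFD replicates 1, 2 and 3 and 38, 22 and 38 counts in RD replicates 1, 2 and 3, and a log2 change of 0.03 ± 0.29. At these depths a difference of the size seen for THRA is within 2 standard errors for both genes, so one of that size could not be told from 0. KLF9, a zinc-finger factor that thyroid hormone and glucocorticoids induce, was abundant enough for a tighter estimate. It stood at 118, 94.1 and 95.2 CPM in HFD replicates 1, 2 and 3, and at 89.4, 105 and 107 CPM in RD replicates 1, 2 and 3. Its groups overlapped, and its log2 change of 0.03 ± 0.11 was not called (adjusted p = 0.898, edgeR).

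**Figure D3:**
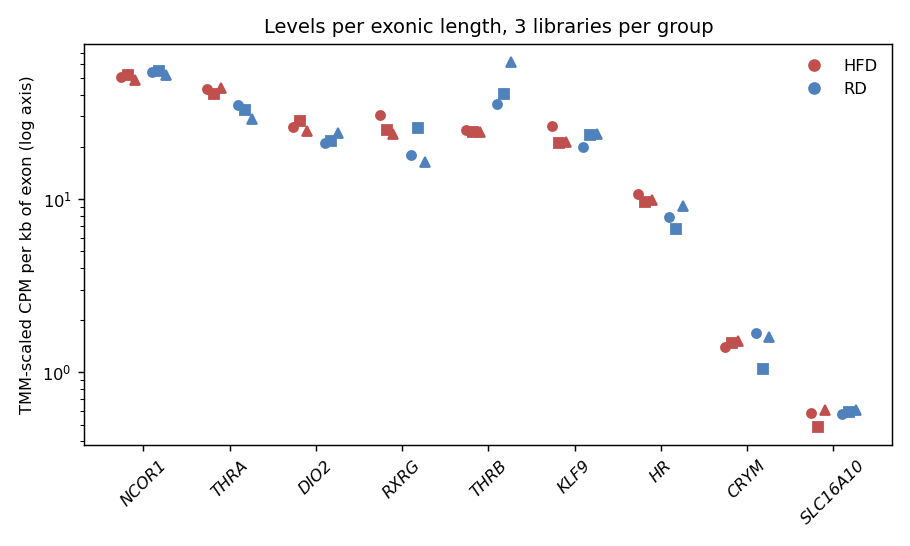
TMM-scaled CPM per kilobase of annotated exon for the 9 genes in every library, on a log axis, HFD in red and RD in blue, in the order of the HFD means. NCOR1 and THRA lead in HFD, THRB stands second in RD, and CRYM and SLC16A10 are the lowest in both groups.

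Levels of different genes were compared per kilobase of annotated exon. NCOR1 was highest, at 50.2 ± 1.53 CPM per kb in HFD and 53.7 ± 1.21 CPM per kb in RD (SD, n = 3 each, as for the levels that follow). THRA stood at 42.4 ± 1.74 CPM per kb in HFD and 32.3 ± 2.98 CPM per kb in RD. THRB stood at 24.6 ± 0.51 CPM per kb in HFD and 45.7 ± 14 CPM per kb in RD. Of the 9 genes THRA thus held rank 2 and THRB rank 5 in HFD, and THRB rank 2 and THRA rank 3 in RD. In RD the THRA libraries (29.1 to 35 CPM per kb) ended just below the lowest THRB library (35.2 CPM per kb), and RD replicate 3 put THRB (61.6) above NCOR1. DIO2, RXRG, THRB and KLF9 overlapped in HFD, between 21.0 and 30.4 CPM per kb, and their order is not resolved there. KLF9, DIO2 and RXRG overlapped in RD, between 16.4 and 25.6 CPM per kb. HR was lower (9.59 to 10.7 in HFD libraries and 6.71 to 9.10 in RD libraries), and CRYM (1.46 in HFD and 1.43 in RD) and SLC16A10 (0.558 in HFD and 0.593 in RD) were lowest. With the longest annotated transcript as the length, THRA and THRB kept these ranks in RD, while THRB held rank 4 in HFD. The annotated Thrb transcripts run from 1758 to 6200 bases, and which of them the counts reflect is unknown, so a level per kb depends on that choice.

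The rest of the pathway was described from 7 lists, with 36 genes tested, of which 4 were called higher and 2 lower and 30 were not called. The median log2 change over these genes was 0.03, and the groups did not overlap for 13 of them, as for 32.5% of all tested genes. These calls are read against the 10.5% called among all tested genes. Without HFD replicate 2 or without HFD replicate 3, 2 of the 36 were called, where 3.5% and 3.08% of all genes were. The lists were written with earlier results of these data known.

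Among genes of the thyrotropin axis that thyroid hormone lowers in the pituitary, 3 of 3 tested were called higher. TSHB, the thyrotropin beta subunit, stood at 286, 294 and 281 CPM in HFD replicates 1, 2 and 3, and at 94.3, 161 and 162 CPM in RD replicates 1, 2 and 3. The HFD libraries were all far above the RD libraries, and the log2 change was 1.04 ± 0.17 (adjusted p = 0.00615, edgeR). CGA, the shared alpha subunit, was higher by 0.37 ± 0.07 (log2), and lost its call when HFD replicate 2 or 3 was removed (adjusted p = 0.0525 and 0.0549). TRHR, the receptor for thyrotropin-releasing hormone, was higher by 0.53 ± 0.14 (log2), and among 6 fits on 5 libraries it was called in 1, with adjusted p up to 0.139 in the others. TRH was under the filter. RD replicate 1 was the lowest RD library for TSHB as for THRB, whereas RD replicate 3, far the highest for THRB, was level with RD replicate 2 for TSHB.

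Of 8 tested genes that thyroid hormone is known to raise in some tissues, 1 was called, and it was lower. GH1, growth hormone, stood at 38005 ± 1472 CPM in HFD and 67336 ± 7285 CPM in RD (SD, n = 3 each), a log2 change of -0.83 ± 0.07 (adjusted p = 0.000616, edgeR). RCAN2, a calcineurin inhibitor, was at 0.43 ± 0.12 (log2) just short of the threshold (adjusted p = 0.0501, edgeR) and passed it in 8 of 16 other settings. Among the fits with a library left out RCAN2 passed in 1, with adjusted p up to 0.155 (edgeR) in the others. DIO1, the other activating deiodinase, was scarce, at 1.68 ± 0.53 CPM in HFD and 1.14 ± 0.35 CPM in RD. The list's median log2 change was 0.24, with 6 genes above 0 and 2 below.

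Among the proteins that act on deiodinases, WSB1, a ubiquitin ligase adaptor that marks DIO2 for degradation, was higher. It stood at 54.7, 66.6 and 67.1 CPM in HFD replicates 1, 2 and 3, and at 48.1, 45.9 and 48.7 CPM in RD replicates 1, 2 and 3, without overlap. Its log2 change was 0.40 ± 0.10 (adjusted p = 0.0284, edgeR), and the call was lost without HFD replicate 2, HFD replicate 3, RD replicate 1 or RD replicate 2 (adjusted p = 0.0539 to 0.131). The other 4 tested genes of this list, DIO1, SECISBP2, USP20 and USP33, were not called. DIO3, which inactivates the hormone, was under the filter, with 5, 4 and 8 counts in HFD replicates 1, 2 and 3, and 6, 16 and 20 counts in RD replicates 1, 2 and 3.

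Of 4 tested transporter genes, 0 were called by edgeR (2 at an unadjusted p under 0.05), 0 by limma-voom and 2 by DESeq2. SLC7A8, an amino acid exchanger that also carries thyroid hormone, averaged 79.6 ± 1.29 CPM in HFD and 101 ± 14.8 CPM in RD (SD, n = 3 each). Its HFD and RD libraries did not overlap, and its log2 change of -0.35 ± 0.10 lay just short of the edgeR threshold (adjusted p = 0.0552).

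Of 5 other corepressor subunits, TBL1XR1 was called lower. This exchange factor of the NCOR complexes stood at 112, 123 and 110 CPM in HFD replicates 1, 2 and 3, and at 141, 139 and 166 CPM in RD replicates 1, 2 and 3. The groups did not overlap, and the log2 change was -0.37 ± 0.08 (adjusted p = 0.0236, edgeR). Removing any 1 HFD library ended the call (adjusted p = 0.0568 to 0.113). HDAC3, the deacetylase of the complex, had a log2 change of 0.23 ± 0.07 (adjusted p = 0.0775, edgeR). Of 10 coactivator genes, 0 were called by edgeR (1 at an unadjusted p under 0.05), DESeq2 or limma-voom, and the median log2 change was -0.06. PPARGC1A had the smallest p of them, at 7.74 ± 0.50 CPM in HFD and 5.74 ± 1.18 CPM in RD (SD, n = 3 each; adjusted p = 0.185, edgeR), followed by MED1 (-0.13 ± 0.08).

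**Figure D4:**
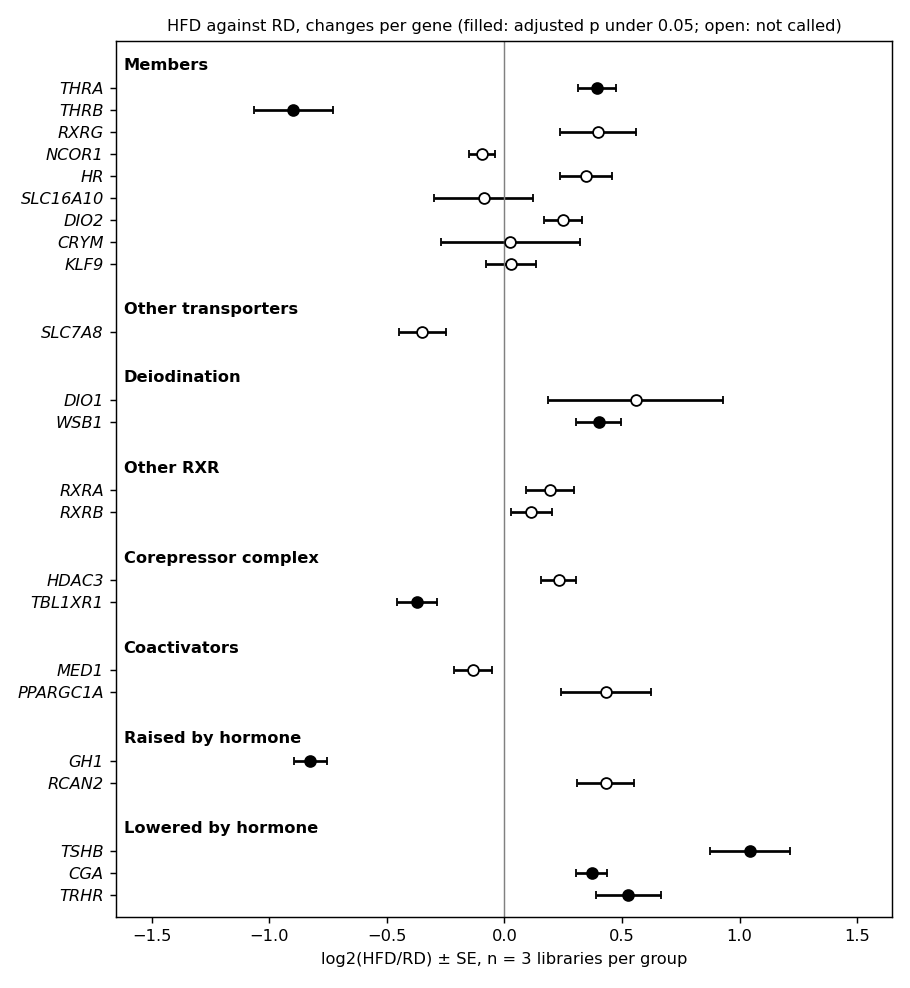
Log2(HFD/RD) with its SE for the 9 genes and for the named genes of the pathway lists (n = 3 libraries per group), DIO1 being shown once although it is in 2 lists. Filled points passed an adjusted p of 0.05: THRA, WSB1, TSHB, CGA and TRHR on the higher side, THRB, TBL1XR1 and GH1 on the lower.

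The genes whose pattern over the 6 libraries was nearest to THRB, by root mean square distance of centred log2 CPM among 12802 genes, were TMPO (0.07), USP13 (0.08) and MYO1D (0.10). TMPO stood at 101, 97.1 and 103 CPM in HFD replicates 1, 2 and 3, and at 163, 169 and 249 CPM in RD replicates 1, 2 and 3. RD replicate 3 was the highest library for all 3 of them, as for THRB, which follows from how they were chosen. Nearest to THRA were GRIK5 (0.03), DTD2 (0.03) and DOCK6 (0.04), with log2 changes of 0.37 to 0.39. That these are close to the change of THRA follows from the choice too, and DTD2 was not called (adjusted p = 0.105, edgeR).

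The markers of hormone cells moved between the groups as well, and their part in the results above was not tested. Marker counts below stand beside the 10.5% of all tested genes that were called (5.87% higher and 4.61% lower). Of 6 thyrotroph markers, which include TSHB, CGA and TRHR, 5 were called higher and 1, POU1F1, lower (log2 change -0.84 ± 0.10). Their summed level was 2920 to 3200 CPM in HFD and 2370 to 2690 CPM in RD. Most of this sum was CGA, the shared alpha subunit (means of 2406 CPM in HFD and 1861 CPM in RD). Of 3 somatotroph markers 2 were called lower, GH1 and again POU1F1, which both lists hold, and their sum, nearly all GH1, was 37000 to 40000 CPM in HFD and 59600 to 72400 CPM in RD. Of 4 gonadotroph markers 3 were called lower and 1 higher (1020 to 1110 CPM in HFD and 1350 to 1510 CPM in RD), and of 2 lactotroph markers PRL was called lower (list sums of 9630 to 12300 CPM in HFD and 13800 to 15300 CPM in RD). Of 5 corticotroph and melanotroph markers 1 was called higher, with overlapping sums (6140 to 14300 CPM in HFD and 5920 to 10000 CPM in RD). The 5 markers of pituicytes and glia, cells in which DIO2 is also known, summed to 69.7 to 142 CPM in HFD and 132 to 195 CPM in RD, and VIM alone of them was called (lower, -0.63 ± 0.15). Of the 4 folliculostellate, 5 endothelial, 5 macrophage and 2 hypothalamic neuron markers and the 1 red cell marker tested, 0 were called by edgeR (1 at an unadjusted p under 0.05), DESeq2 or limma-voom. None of the marker genes in the table was at 0 in all libraries, and the hormone genes that define the pituitary were present in each.

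**Figure D5:**
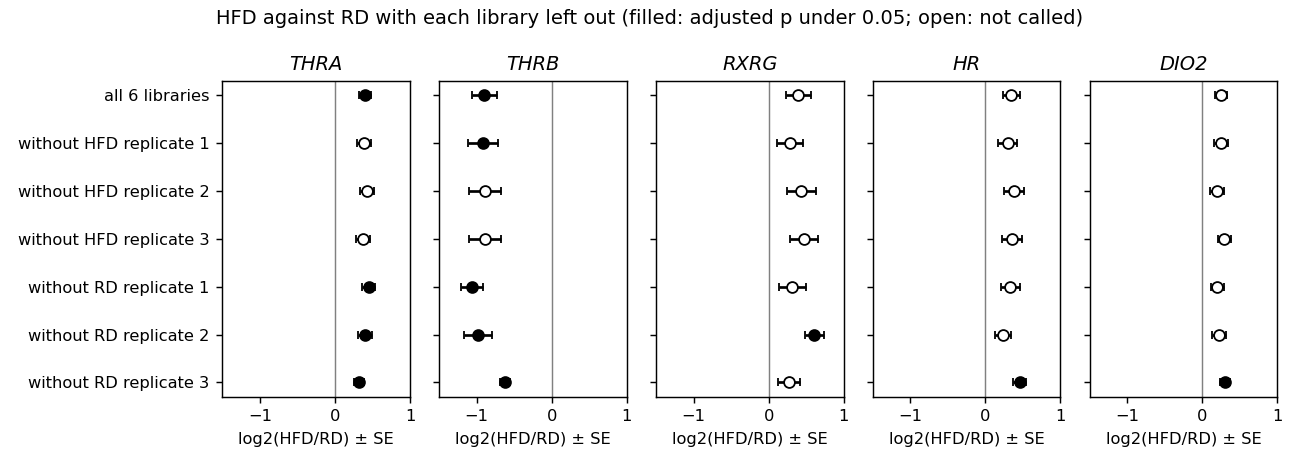
Log2(HFD/RD) ± SE of THRA, THRB, RXRG, HR and DIO2 with all 6 libraries and with each library left out (filled, adjusted p under 0.05 by edgeR). The direction held in every fit. Removing any HFD library ended the call of THRA, and removing HFD replicate 2 or 3 ended that of THRB. HR and DIO2 were called only without RD replicate 3, and RXRG only without RD replicate 2.

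Totals ranged from 14185372 to 14384933 counts in HFD libraries and from 15702214 to 18111345 counts in RD libraries. Without HFD replicate 2 or HFD replicate 3, 0 of the 9 genes were called by edgeR, where 3.5% and 3.08% of all genes tested in these fits were called. At an unadjusted p under 0.05 there were 3 and 5 of the 9, against 20.7% and 19.6% of all genes. In these reduced sets DESeq2 called 1 in both, and limma-voom called 1 without HFD replicate 2 and 0 without HFD replicate 3. Without RD replicate 3, 4 of the 9 were called, and 10.1% of all genes tested.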

How the data were processed

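RNA-seq of 6 male mouse pituitary libraries (3 HFD, 3 RD, grouped by their titles) was analysed from 1 deposited table of whole-number read counts per gene symbol, not normalized by the authors. The build was mm10, per the submitters' processing notes; aligner, counting tool, annotation and use of strand: not given in the sources used here. Totals were 14185372 to 18111345 counts over the listed rows. Counts from 1 to 10 were even in 64.0% to 67.0% of cases (48.9% to 50.4% above 200), so both mates of a pair may have been counted. The errors come from edgeR's model of counts, whose estimates of spread are moderated over genes. They are thus not the spread between the libraries of 1 gene alone. With halved counts the log2 changes were 0.40 ± 0.08 for THRA and -0.90 ± 0.17 for THRB (SE). At these totals 3 counts equal 0.166 to 0.211 CPM.

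The test was the two-sided quasi-likelihood test of edgeR 4.0.16 (R 4.3.3; TMM, minimum count 10, minimum total 15, diet as the only term), with p-values adjusted by Benjamini-Hochberg over 13873 genes at 0.05. SEs were obtained as |log2 change| over the square root of F. Symbols that stood on 2 rows (43 cases) were tested row by row. Coordinates and exonic lengths are from the basic set of GENCODE M21, matched by symbol for 9 of 9 genes, and start windows are from RefSeq (GRCm38.p6). Members and lists were chosen with earlier results of these data known. Named were the 9 members, of each list the called genes and otherwise up to 2 with the smallest p, and the 3 genes nearest to each receptor (mean log2 CPM 1 or above); POU1F1, PRL and VIM among the markers, NR1D1, and the pathway genes given only as not called or under the filter were named beyond this rule, and 1 gene that the rule takes is not reported here. Alternatives were other scalings and filters, DESeq2 1.42.0, limma-voom (limma 3.58.1), halved counts, a replicate block and each library left out.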

Additional observations from a re-analysis of the deposited data

How the results depend on the processing

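Over 16 alternatives THRA (log2 change 0.32 to 0.46) and THRB (-1.06 to -0.63) kept their direction in each, and their call in 13 and 14; the exceptions, all with an HFD library left out, are given above. The count of called members was 2, and 4 with upper-quartile scaling or library size only, where HR and DIO2 joined; with a library left out it ranged from 0 to 4. DESeq2 called 3, HR being the third. Called pathway genes numbered 6, with 4 to 9 in the alternatives that keep all libraries (9 with DESeq2 or library size only, 8 with no filter) and 2 to 7 with a library left out. Called genes over the table numbered 1453, with 1783 by DESeq2, and 431 to 1523 with a library left out (701, 490 and 431 without HFD replicates 1, 2 and 3, and 890 without RD replicate 2). Library size only moved the median of all genes by 0.07 (log2), and 72.5% of the calls were then higher, against 56.0% with TMM. Changes near 0 turned sign: with a library left out SLC16A10 ranged from -0.15 to 0.0015, CRYM from -0.16 to 0.14, KLF9 from -0.086 to 0.085 and NR1D1 from -0.0034 to 0.15. The cause was not tested.

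The titles share replicate numbers, but same-numbered libraries did not deviate together (correlations -0.127, 0.004 and -0.097), nor did every library correlate best with its own number, so the numbers are not taken as pairs. With the replicate block 808 genes were called over the table, and 2 members and 4 pathway genes; WSB1, TBL1XR1 and TRHR were not called (adjusted p = 0.0639, 0.0617 and 0.0747), and RCAN2 was (adjusted p = 0.0441). Depth limits SLC16A10, CRYM, DIO1 and DIO3, whose counts are low.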
